A study of Mus musculus with 12 samples.

Results

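Transcripts of 9 genes that mark adipose progenitor subsets (Dpp4, Pi16, Cd55, F3, Dlk1, Ly6a, Cd34, Zfp423 and Ebf2) were followed across 12 poly-A RNA-seq libraries of the mouse adipose stromal vascular fraction, the cells of fat tissue that remain once mature adipocytes are removed. The genes were chosen by symbol from the 24422 features in the count tables. All 9 passed the filter on low counts, which kept 16713 genes. The libraries form 4 groups of 3. SD mCherry (replicates 1, 2 and 3) is the genotype p21+/mcherry on Standard Diet (SD). HFD mCherry (replicates 15, 17 and 20) is the same genotype on High Fat Diet (HFD). HFD Tert (replicates 25, 26 and 27) is p21+/mcherry-Tert on HFD, with telomerase reverse transcriptase under the p21 promoter, and HFD TertCi (replicates 30, 31 and 33) is p21+/mcherry-TertCi on HFD, carrying the TertCi form. All 4 groups therefore carry 1 altered p21 allele, and the transgenes are expressed only where the p21 promoter is active. The series' design text writes the HFD control as p21+/-, whereas the sample labels give p21+/mcherry, and the labels were followed. Tissue is labelled Adipose tissue (AT) and cell type stromal cells. Sex, age, fat depot and preparation batch are not in the labels used here, nor is it stated that each library comes from a separate animal, so p-values measure the spread between these libraries.

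Adipose progenitors lie around vessels and in the connective tissue that wraps the fat lobules, and they are ordered into subsets by surface proteins and transcription factors. Dpp4, Pi16 and Cd55 mark multipotent interstitial progenitors, which give rise to committed preadipocytes. F3 (tissue factor, CD142) marks a stromal population reported to restrain adipogenesis in its neighbours, and Dlk1 (Pref-1) encodes a secreted inhibitor of adipocyte differentiation that is lost as preadipocytes mature. Ly6a (Sca-1) and Cd34 are broad progenitor surface markers that endothelial cells also carry, Zfp423 is a zinc-finger factor of preadipocyte commitment, and Ebf2 is a transcription factor of brown and beige precursors that is also found in interstitial progenitors.

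No marker passed an adjusted p of 0.05 in any of 5 pairwise comparisons or in the test over the 4 groups. Within that limit the values differed from marker to marker. Pi16, Cd55, Ebf2, Ly6a, Cd34 and Zfp423 were all higher in HFD mCherry 17 and 20 than in the third library of that group, and the fitted levels of Pi16, Cd55 and Ebf2 in HFD mCherry were 2.33, 2.86 and 2.89 times those on SD. Dpp4, the marker usually used with Pi16 and Cd55 for the same cells, had a fitted level 0.767 times that on SD. Dlk1 was lower in every HFD mCherry library than in every SD library, as were 11.6% of all genes. In bulk RNA, a smaller number of marker-bearing cells and less RNA per cell cannot be told apart.

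The libraries held 16430330 to 19486965 counts, and no pair of replicates within a group agreed within sampling noise. Tert was at 6.99 to 16.6 CPM (counts scaled to a common library size) in the 6 knock-in libraries and at 0.463 to 3.97 CPM in the 6 mCherry libraries, and an added feature named mCherry_Tert had 0 counts in all 6 mCherry libraries and 1.93 to 5.54 CPM in the knock-ins. Dcn, a proteoglycan gene that defines fibroblastic stroma, was at 1439 to 4507 CPM in every library, and transcripts of other tissue were present as well. The summed level of the 9 tested genes of an 11-gene list for epididymis and epithelium ran from 4.82 to 57744 CPM, with both low and high libraries in each group on HFD. HFD mCherry 15 stood at 28909 CPM against 2035 and 98.8 CPM in HFD mCherry 17 and 20, and HFD Tert 27 stood at 4.82 CPM against 21692 and 10720 CPM in the other two of its group. Within SD, library 2 had 1839 CPM and libraries 1 and 3 had 18573 and 57744 CPM. Epcam and Cdh1 of this list were nevertheless higher in SD mCherry 2 than in any other library, at 543 and 381 CPM. Crisp1 and Akr1b7 were at 0.242 and 0.339 CPM there, so the sum does not follow all epithelial genes. Within HFD TertCi, library 31 had 256 CPM and libraries 30 and 33 had 34012 and 27708 CPM. Marker differences that moved by over 1.5 times on the linear scale without HFD mCherry 15 and HFD Tert 27 together are therefore also given without them. That choice was made after the data were seen. SD mCherry 3, with the highest sum of all, and HFD TertCi 31, with the lowest of its group, were kept.

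Per kilobase of exon, the order of the group means was almost the same in the 4 groups. Ly6a came first, at 221 ± 61.7 CPM per kilobase (SD, n = 3) in SD mCherry and 376 ± 136 CPM per kilobase in HFD mCherry. F3 followed at 151 ± 97.2 and 99.4 ± 7.61 CPM per kilobase, and Cd34 at 44.8 ± 12.1 and 75.9 ± 31.02 CPM per kilobase. F3 and Cd34 did not differ beyond their spread in the 3 HFD groups. Pi16, Cd55 and Dpp4 lay in the middle, between 10.5 and 47.2 CPM per kilobase over the 4 groups, with Pi16 and Cd55 within each other's spread in every group and Cd55 above Pi16 only in HFD Tert. Zfp423 and Ebf2 lay between 1.63 and 5.79 CPM per kilobase, with Ebf2 above Zfp423 only in HFD mCherry. Dlk1 was last in all 4 groups, at 0.514 to 1.36 CPM per kilobase.

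**Figure D1:**
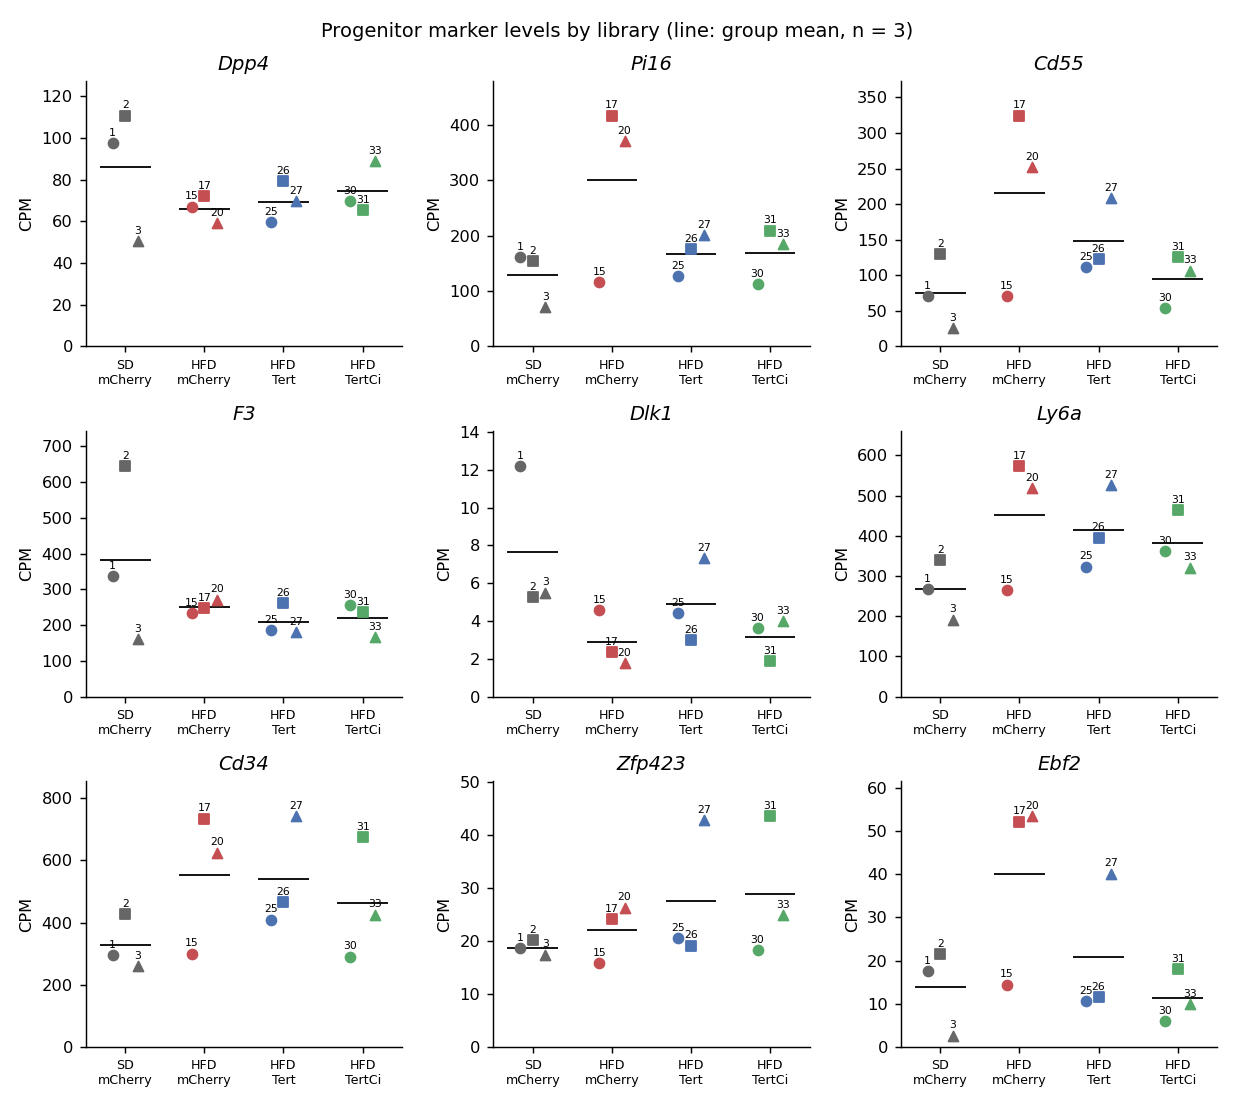
Level of each marker in CPM (vertical axis, linear, from 0) in the 12 libraries, grouped by diet and genotype, with replicate numbers beside the points and a line at each group's mean (n = 3). Pi16, Cd55 and Ebf2 are highest in HFD mCherry 17 and 20, whereas HFD mCherry 15 lies at 115, 70.5 and 14.4 CPM for these 3 genes, inside the SD range.

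Among the interstitial progenitor markers, Dpp4 encodes a dipeptidyl peptidase on the cell surface (chromosome 2, 62330073 to 62412231, minus strand, GRCm38). It was at 97.5, 111 and 50.5 CPM in SD mCherry 1, 2 and 3. It was at 67.1, 72.2 and 59.1 CPM in HFD mCherry 15, 17 and 20. The SD libraries spanned the whole HFD mCherry range, so the groups overlapped, and HFD mCherry had a narrow spread (66.1 ± 6.62 CPM, SD, n = 3). The HFD Tert libraries were at 59.5, 79.3 and 69.7 CPM and the HFD TertCi libraries at 69.8, 65.5 and 88.9 CPM. The diet difference was a log2 fold change of -0.38 ± 0.271 (SE, edgeR quasi-likelihood test, adjusted p = 0.389), with a 95% interval from -0.98 to 0.21. Against HFD mCherry, the difference was 0.07 ± 0.271 in HFD Tert (edgeR adjusted p = 0.92) and 0.18 ± 0.271 in HFD TertCi (edgeR adjusted p = 0.79), and the 95% intervals, -0.53 to 0.67 and -0.42 to 0.77, leave room for differences of either sign. Over the 12 libraries Dpp4 varied 2.19-fold from lowest to highest, the narrowest range of the 9 markers.

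Pi16, a secreted cysteine-rich peptidase inhibitor (chromosome 17, 29317680 to 29330593, plus strand), varied more. It was at 162, 153 and 71.5 CPM on SD and at 115, 416 and 370 CPM in HFD mCherry 15, 17 and 20, so a pair of HFD libraries lay above all SD libraries and the third lay inside the SD range. The knock-in libraries were at 127, 175 and 201 CPM in HFD Tert and at 113, 209 and 185 CPM in HFD TertCi. All 6 lay below HFD mCherry 17 and 20, and only 1 of them, HFD TertCi 30, lay below HFD mCherry 15. The group means were 129 ± 49.9 CPM on SD, 301 ± 162 CPM in HFD mCherry, 168 ± 37.2 CPM in HFD Tert and 169 ± 50.04 CPM in HFD TertCi (SD, n = 3 each). The diet difference of 1.22 ± 0.473 on the log2 scale had an unadjusted p of 0.0258 and an edgeR adjusted p of 0.163. The difference was -0.84 ± 0.469 for HFD Tert (edgeR adjusted p = 0.386) and -0.83 ± 0.469 for HFD TertCi (edgeR adjusted p = 0.433) against the same 3 HFD mCherry libraries.

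Cd55, a complement decay-accelerating protein (chromosome 1, 130439027 to 130462744, minus strand), followed the same libraries. SD mCherry was at 70.4, 130 and 25.7 CPM and HFD mCherry at 70.5, 324 and 252 CPM. HFD Tert was at 111, 122 and 209 CPM, and HFD TertCi was at 53.9, 126 and 106 CPM. HFD mCherry 17 and 20 were above every other library, and HFD mCherry 15 was level with SD mCherry 1. The diet difference was 1.52 ± 0.642 on the log2 scale (unadjusted p = 0.0381, edgeR adjusted p = 0.187). It was -0.55 ± 0.630 in HFD Tert and -1.18 ± 0.636 in HFD TertCi against HFD mCherry (edgeR adjusted p = 0.686 and 0.416), and without HFD mCherry 15 and HFD Tert 27 it was -1.30 ± 0.637 and -1.60 ± 0.565 (edgeR adjusted p = 0.226 and 0.147). Of the 50-base stretches of Cd55 exons, 10.9% also occur in its neighbour Cd55b, so some reads could be shared, although Cd55b itself had only 0 to 5 counts a library.

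Sequences before the RefSeq start site (assembly GRCm38.p6, gene strand, 250 bases) are shown for 2 markers of the same cells whose diet values had opposite signs, Dpp4 and Cd55. Both hold a match to the core of the palindrome read by EBF factors, the family of Ebf2. The full palindrome, which is the core CCCNNGGG with T before it and A after it, was found in Dpp4 only, 115 bases before the start (chr2:62412232-62412481, minus strand), and the core alone, which the palindrome overlaps, in both Dpp4 and Cd55 (chr1:130462745-130462994, minus strand). Matched letters are in capitals, the full palindrome in Dpp4 and the core in Cd55.
Dpp4: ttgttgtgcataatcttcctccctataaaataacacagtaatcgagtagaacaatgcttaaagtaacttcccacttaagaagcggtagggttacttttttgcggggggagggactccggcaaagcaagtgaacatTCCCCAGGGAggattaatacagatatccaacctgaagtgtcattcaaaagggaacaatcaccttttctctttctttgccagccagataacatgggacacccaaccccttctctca
Cd55: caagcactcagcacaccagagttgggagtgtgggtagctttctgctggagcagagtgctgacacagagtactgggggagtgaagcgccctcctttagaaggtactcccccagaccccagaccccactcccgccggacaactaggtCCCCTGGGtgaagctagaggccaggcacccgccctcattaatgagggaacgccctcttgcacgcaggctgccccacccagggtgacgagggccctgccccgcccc
The palindrome occurred in 0.779% of 32851 such windows over all genes on either strand, and the core in 11.8%. Zfp423 also held the core, 28 bases before the second of its listed starts. Neither the palindrome nor the core was found for Pi16, the third interstitial progenitor marker here, or for F3, Dlk1 and Cd34. A match is a description of letters and not a measured binding site. Promoter entries were found for 7 of the 9 markers, not for Ly6a and Ebf2.

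F3, the receptor that starts blood coagulation and the CD142 antigen (chromosome 3, 121723537 to 121735048, plus strand), was at 337, 646 and 161 CPM on SD. It was at 233, 249 and 272 CPM in HFD mCherry. The SD libraries spread 4.02-fold from lowest to highest while the HFD mCherry libraries spread 1.16-fold, and the groups overlapped. HFD Tert was at 187, 261 and 181 CPM and HFD TertCi at 256, 238 and 167 CPM, which overlapped HFD mCherry in both cases. Its diet difference was -0.60 ± 0.408 on the log2 scale (edgeR adjusted p = 0.372). It depended on the SD libraries, at 0.014 without SD mCherry 2 and -0.97 without SD mCherry 3. Against HFD mCherry the differences were -0.26 ± 0.407 in HFD Tert and -0.19 ± 0.407 in HFD TertCi (edgeR adjusted p = 0.776 and 0.855). The 250 bases before the RefSeq start of F3 (chr3:121723287-121723536, plus strand, GRCm38.p6) are shown because this inducible gene holds 2 matches to the AP-1 site TGANTCA, 146 and 135 bases before the start, in capitals.
F3: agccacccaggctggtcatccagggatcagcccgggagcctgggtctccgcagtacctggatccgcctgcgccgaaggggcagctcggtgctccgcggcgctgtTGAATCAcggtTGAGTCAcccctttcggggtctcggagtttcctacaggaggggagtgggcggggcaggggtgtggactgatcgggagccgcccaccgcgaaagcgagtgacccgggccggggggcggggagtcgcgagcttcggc
A match to TGANTCA was found in 6.75% of the 32851 windows, on either strand.

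Dlk1 (chromosome 12, 109452823 to 109463336, plus strand) was the lowest of the 9, with 29 to 240 counts a library. It was at 12.2, 5.29 and 5.50 CPM in SD mCherry 1, 2 and 3. It was at 4.58, 2.34 and 1.79 CPM in HFD mCherry 15, 17 and 20. All HFD mCherry libraries lay below all SD libraries, with a gap between 4.58 and 5.29 CPM. Of all genes, 11.6% were lower in HFD mCherry without overlap. HFD Tert was at 4.44, 2.99 and 7.35 CPM and HFD TertCi at 3.62, 1.87 and 4.01 CPM, and both overlapped HFD mCherry. The diet difference was -1.40 ± 0.540 on the log2 scale, with a 95% interval from -2.59 to -0.20, an unadjusted p of 0.0257 and an edgeR adjusted p of 0.163. Against HFD mCherry it was 0.76 ± 0.534 in HFD Tert (edgeR adjusted p = 0.488) and 0.12 ± 0.533 in HFD TertCi (edgeR adjusted p = 0.934). The value of HFD Tert leaned on its library 27, and without that library the difference was 0.35.

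The broad markers Ly6a, a small lipid-anchored surface protein (chromosome 15, 74994877 to 74998031, minus strand), and Cd34, a sialomucin (chromosome 1, 194938819 to 194961279, plus strand), had a similar shape at higher levels. Ly6a was at 268, 340 and 192 CPM on SD and at 266, 574 and 518 CPM in HFD mCherry. It was at 323, 395 and 527 CPM in HFD Tert and at 361, 465 and 321 CPM in HFD TertCi. HFD mCherry 15 was again the library inside the SD range, and HFD Tert 27 was level with HFD mCherry 17 and 20. The diet difference of Ly6a was 0.76 ± 0.335 on the log2 scale (unadjusted p = 0.044, edgeR adjusted p = 0.197). Of the 50-base stretches of its exons, 10% also occur in other Ly6 genes, so its counts could be shared.

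Cd34 was at 294, 426 and 259 CPM on SD and at 300.1, 735 and 625 CPM in HFD mCherry. It was at 410, 466 and 743 CPM in HFD Tert and at 291, 675 and 426 CPM in HFD TertCi. The highest library of each HFD group (HFD mCherry 17, HFD Tert 27 and HFD TertCi 31) was at 735, 743 and 675 CPM in that order, and in the 2 knock-in groups it was the library with the lowest epithelial level. The diet difference was 0.76 ± 0.413 on the log2 scale (edgeR adjusted p = 0.275). In the knock-ins the differences from HFD mCherry were -0.04 ± 0.411 and -0.25 ± 0.411 for Cd34, and -0.12 ± 0.333 and -0.24 ± 0.333 for Ly6a, for HFD Tert and HFD TertCi in that order, with edgeR adjusted p from 0.763 to 0.974. The sign for Cd34 in HFD Tert turned to 0.086 when only library size was used for scaling, and the value was -0.64 ± 0.394 without HFD mCherry 15 and HFD Tert 27 (edgeR adjusted p = 0.322). Both genes are also made by endothelial cells, whose 9-gene list summed to 790 to 1025 CPM on SD, 1135 to 2173 CPM in HFD mCherry, 1887 to 3650 CPM in HFD Tert and 1541 to 4005 CPM in HFD TertCi, and its part in the Ly6a and Cd34 values was not tested.

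Of the transcription factors, Zfp423 (chromosome 8, 87661810 to 87959595, minus strand) was nearly level on SD, at 18.7, 20.1 and 17.4 CPM. It was at 15.9, 24.1 and 26.3 CPM in HFD mCherry, at 20.5, 19.1 and 42.8 CPM in HFD Tert and at 18.2, 43.6 and 24.9 CPM in HFD TertCi. HFD Tert 27 and HFD TertCi 31, the libraries with the fewest epithelial transcripts in their groups, were the highest of the 12. For diet, Zfp423 differed by 0.24 ± 0.385 on the log2 scale (edgeR adjusted p = 0.717), and by -0.028 with the epithelial level as a covariate. The knock-in differences were 0.32 ± 0.385 in HFD Tert and 0.39 ± 0.385 in HFD TertCi (edgeR adjusted p = 0.705 and 0.669). Without HFD mCherry 15 and HFD Tert 27 the HFD Tert difference was -0.35.

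Ebf2 (chromosome 14, 67233292 to 67430918, plus strand) varied most, 20.6-fold between its lowest and highest library. It was at 17.5, 21.5 and 2.61 CPM on SD and at 14.4, 52.3 and 53.6 CPM in HFD mCherry 15, 17 and 20. It was at 10.5, 11.5 and 40.2 CPM in HFD Tert 25, 26 and 27 and at 5.92, 18.1 and 9.92 CPM in HFD TertCi. HFD Tert 27 was the only knock-in library near HFD mCherry 17 and 20, and the lowest library, SD mCherry 3, had the highest summed epididymis and epithelium level of the 12. For diet, the difference was 1.53 ± 0.813 on the log2 scale, with a 95% interval from -0.27 to 3.33 (edgeR adjusted p = 0.266). HFD TertCi differed from HFD mCherry by -1.83 ± 0.821, with a 95% interval from -3.64 to -0.01, an unadjusted p of 0.0488 and an edgeR adjusted p of 0.337. HFD Tert differed by -0.95 ± 0.802 (edgeR adjusted p = 0.567), by -1.86 without its library 27, and by -2.26 ± 0.826 without HFD Tert 27 and HFD mCherry 15 together (edgeR adjusted p = 0.132).

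Over the diet comparison, 0 of 9 markers were called by edgeR, where 0.0479% of the 16713 genes tested were. At an unadjusted p under 0.05, 3 markers were higher (Pi16, Cd55 and Ly6a, where 14.1% of all genes were) and 1 was lower (Dlk1, where 10% of all genes were), with 24.1% of all genes under that limit in either direction. Only Dlk1, which was lower, had groups that did not overlap. Of all genes, 25.5% had no overlap in either direction and 11.6% were lower without overlap. The median log2 fold change of the 9 was 0.76, against -0.075 over all genes. DESeq2 called 13.3% of the genes it tested and 0 of the 9 markers, with Dlk1 and Pi16 lowest at adjusted p = 0.0712 and 0.0727. Without HFD mCherry 15, Pi16 (1.61 ± 0.374 log2, edgeR adjusted p = 0.0262) and Ly6a (1.04 ± 0.297, edgeR adjusted p = 0.0492) were called, and without HFD mCherry 15 and HFD Tert 27 together 4 were: Pi16, Cd55 (1.94 ± 0.567, edgeR adjusted p = 0.0434) and Ly6a higher and Dlk1 lower (-1.89 ± 0.550, edgeR adjusted p = 0.0429). These fits called 12.2% and 19.5% of all genes, so 2 and 4 of 9 markers are read against those shares. The pair was picked after the data were seen. HFD mCherry 15 was the lowest of its group for Pi16, Cd55 and Ly6a and the highest for Dlk1. Leaving it out therefore widens these differences by construction, and the calls are no separate support. The covariate fit described further on called 0 of 9 markers and 9.39% of all genes for diet. HFD mCherry 15 is the library with most epithelial transcripts in its group and also the lowest of its group for Pi16, Cd55, Ly6a, Cd34, Zfp423 and Ebf2, and the part of the epithelial transcripts in this was not tested beyond the covariate fit.

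**Figure D2:**
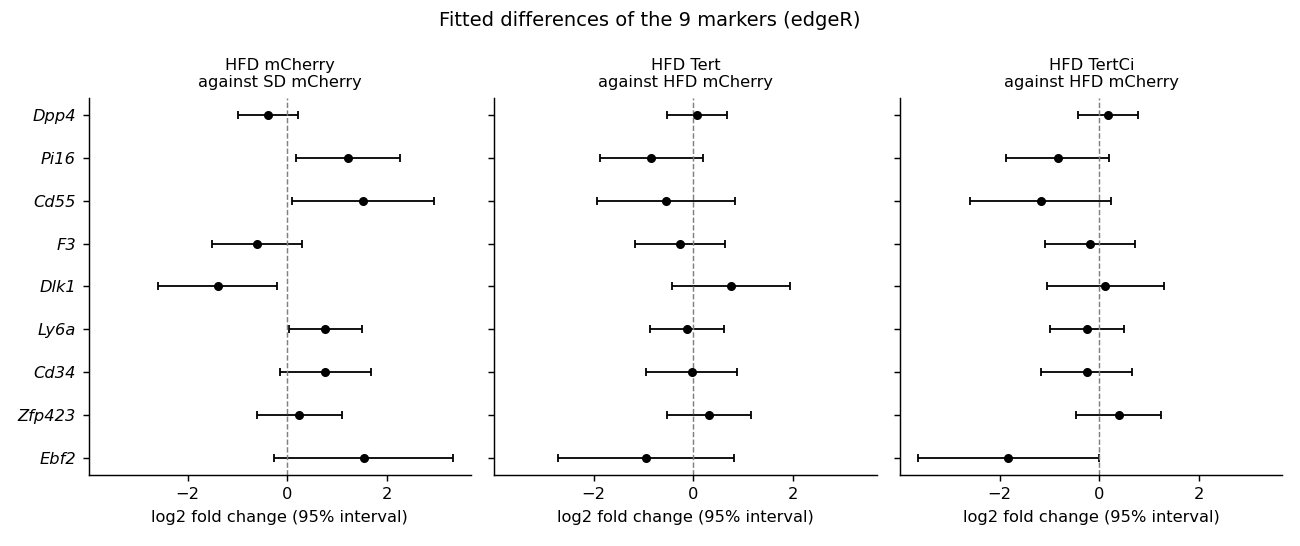
Fitted log2 fold change of each marker (points) with its 95% interval (bars) in 3 panels (the diet comparison, then each knock-in set against HFD mCherry), from 1 edgeR model of 12 libraries. The diet interval lies above 0 for Pi16, Cd55 and Ly6a and below 0 for Dlk1 before adjustment, and in the knock-in panels only Ebf2 in HFD TertCi has an interval just below 0.

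In the knock-ins, edgeR called 0 of 9 markers in HFD Tert against HFD mCherry, where 0% of all genes were called, and 0 of 9 in HFD TertCi, where 0.012% were called. At an unadjusted p under 0.05 there were 0 markers for HFD Tert (16.4% of all genes) and 1, the lower Ebf2, for HFD TertCi (14.7% of all genes, 8.92% lower). No marker had groups free of overlap in either comparison, where 21.1% and 21.5% of all genes did. Both comparisons use the same 3 HFD mCherry libraries, so their values are not independent of each other or of the diet comparison. With both knock-ins averaged (6 libraries against 3), the group means of Pi16 and Ebf2 were 168 and 16.03 CPM against 301 and 40.1 CPM. Their differences were -0.84 ± 0.393 for Pi16 (edgeR adjusted p = 0.253) and -1.39 ± 0.665 for Ebf2 (edgeR adjusted p = 0.261), with Cd55 at -0.86 ± 0.529 (edgeR adjusted p = 0.373). No marker was called in this average, where 0.168% of all genes were, none had an unadjusted p under 0.05, where 21% of all genes did, and none had groups free of overlap, where 13% did. Ebf2 was called with the epithelial level as a covariate (-1.40 ± 0.359, edgeR adjusted p = 0.0354), a fit that called 10.5% of all genes. Pi16 was called without HFD mCherry 15 and HFD Tert 27 (-1.30 ± 0.335, edgeR adjusted p = 0.0434), a fit that called 9.31% of all genes and gave -2.25 ± 0.627 for Ebf2 and -1.45 ± 0.502 for Cd55 (edgeR adjusted p = 0.0569 and 0.1). For each of these genes that fit drops the lowest HFD mCherry library and the highest HFD Tert library. The wider differences therefore follow from a choice made after the data were seen. DESeq2 called 9.71% of the genes it tested and 0 of 9 markers in this average, and without HFD mCherry 15 alone edgeR called 4.04% and 0 of 9.

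HFD Tert and HFD TertCi were compared directly to ask whether the TertCi form gave other levels than Tert. No marker was called, with an edgeR adjusted p of 1 for all 9, and 0% of all genes were called. At an unadjusted p under 0.05 there were 0 markers, where 1.36% of all genes were, and no marker was free of overlap, where 5.13% of all genes were. The differences with the greatest size were those of Ebf2 (0.88 ± 0.804 log2, 95% interval -0.90 to 2.65), Cd55 (0.63 ± 0.630, 95% interval -0.76 to 2.02) and Dlk1 (0.63 ± 0.533, 95% interval -0.54 to 1.81). The intervals of these 3 reach past 1.8 on the log2 scale, so this comparison does not show that the 2 transgenes gave the same levels. Dpp4 had the narrowest interval, from -0.70 to 0.49. Without HFD Tert 27 the Ebf2 difference was -0.035. In the test over the 4 groups, 0 of 9 markers were called (0.012% of all genes), with edgeR adjusted p from 0.289 for Dlk1 to 0.703 for Dpp4.

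Since libraries differed in their stromal transcripts as a whole, each marker was also set against 10 pan-stromal genes of the same library (log2 CPM of the marker minus the mean log2 CPM of the 10). That stromal mean was 8.23, 8.15 and 7.52 log2 CPM on SD, 8.85, 10.10 and 10.16 in HFD mCherry, 8.34, 8.57 and 9.25 in HFD Tert and 8.11, 8.90 and 8.60 in HFD TertCi, and HFD mCherry lay above SD without overlap. On this scale 7 of 9 markers were lower in HFD mCherry than on SD in every library, where 70.6% of all genes were, so the count is near the background. The differences were -3.13 for Dlk1, -2.12 for F3, -2.05 for Dpp4, -1.53 for Zfp423, -1.04 for Cd34, -1.01 for Ly6a and -0.63 for Pi16, against a median of -1.81 over all genes. Cd55 (-0.20) and Ebf2 (0.05) overlapped, and their mean differences were the smallest of the 9. Pi16 showed both sides of this: its CPM was higher in HFD mCherry by the group means, while its level per stromal transcript was lower in every HFD mCherry library (-2.00, -1.40 and -1.63) than in every SD library (-0.89, -0.89 and -1.36).

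Relative to the same stromal genes, Ly6a, Cd34 and Zfp423 were higher in all 6 knock-in libraries than in all 3 HFD mCherry libraries. Their mean differences were 0.95, 0.96 and 1.36 on the log2 scale, against a median of 1.03 over all genes, and 21.6% of all genes were higher without overlap. The pan-stromal genes themselves had a median log2 fold change of -1.11 in the averaged knock-ins. Without that reference, the fitted differences of Ly6a, Cd34 and Zfp423 were -0.18, -0.15 and 0.35. Cd34 was at -0.62, -0.58 and -0.87 in HFD mCherry. It was at 0.34, 0.29 and 0.29 in HFD Tert and at 0.07, 0.50 and 0.14 in HFD TertCi, a much tighter spread than its CPM had. Cd55 was in addition higher without overlap in HFD Tert alone (4 of 9 markers, 23.9% of all genes) and Pi16 in HFD TertCi alone (4 of 9 markers, 35.5% of all genes). Cd55 was also higher in HFD Tert than in HFD TertCi without overlap (1 of 9 markers, 0.539% of all genes), by 0.48, and the groups overlapped when only Dcn and Lum served as the reference. With Dcn and Lum, Cd55 was higher without overlap in HFD TertCi, and in both knock-ins together, than in HFD mCherry. Ebf2 differed by -0.30 relative to stromal genes in the knock-ins together, and overlapped HFD mCherry.

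**Figure D3:**
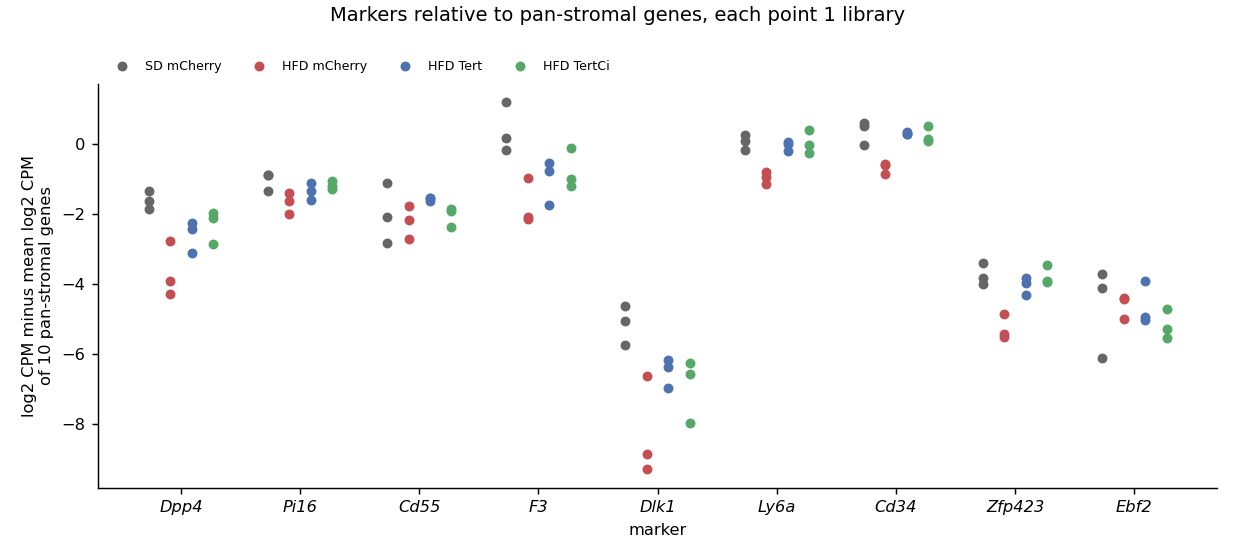
Log2 CPM of each marker minus the mean log2 CPM of 10 pan-stromal genes (vertical axis), 1 point per library, coloured by group. HFD mCherry lies below SD mCherry for 7 of 9 markers, and below both knock-in groups for Ly6a, Cd34 and Zfp423. On this scale 70.6% of all genes lie below SD mCherry without overlap in HFD mCherry, and 21.6% lie above HFD mCherry without overlap in the knock-ins.

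Further genes of the same cell populations were read from lists. Of 14 other interstitial progenitor genes, 0 were called in the diet comparison. At an unadjusted p under 0.05, 6 of them were higher (14.1% of all genes) and 0 lower (10% of all genes). Their median log2 fold change was 0.81, with Mfap5, a microfibril protein, highest at 2.64 ± 0.727 (edgeR adjusted p = 0.0869) and Bmp7, a bone morphogenetic protein, lowest at -1.54 ± 0.899 (edgeR adjusted p = 0.306). Of 13 committed preadipocyte genes, 0 were called, 10 were higher at an unadjusted p under 0.05 and all 13 had positive values, with a median of 1.84. Lpl, the lipoprotein lipase, was highest at 3.77 ± 0.901 (edgeR adjusted p = 0.0728), and the matrix protein gene Sparcl1 lowest at 0.45 ± 0.370 (edgeR adjusted p = 0.453). The diet medians of the committed preadipocyte genes and of the 10 pan-stromal genes (1.84 and 1.47) were thus above those of the 9 markers and of the interstitial genes (0.76 and 0.81), a difference between lists that was not tested. Lpl, Cd36, Fabp4 and Plin2 of the committed list are also expressed by macrophages. The 7-gene macrophage list summed to 196 to 404 CPM on SD and 738 to 1964 CPM in HFD mCherry, and all 7 of its genes were higher in HFD mCherry without overlap (median log2 fold change 2.26, 0 called, 6 at an unadjusted p under 0.05). Over all genes, 25.5% had diet groups without overlap in either direction. The part of the macrophage transcripts in the values of these lists and of the 9 markers was not tested.

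The 9 other genes of CD142+ cells gave a diet median of 0.11, with 0 called and 2 higher at an unadjusted p under 0.05 (14.1% of all genes). Abcg1, a sterol transporter, was highest at 1.73 ± 0.447 (edgeR adjusted p = 0.0766), and the Wnt agonist Rspo2 lowest at -2.35 ± 1.54 (edgeR adjusted p = 0.358). F3, the marker of these cells, was at -0.60 in the same comparison. Of 10 further brown and beige lineage regulators, 0 were called and 2 were higher at an unadjusted p under 0.05, from Ebf1 at 1.59 ± 0.514 (edgeR adjusted p = 0.116) to Tbx1 at -1.04 ± 0.586 (edgeR adjusted p = 0.293). Ebf1, which belongs to the same factor family as Ebf2, had a diet difference close in size to the 1.53 of Ebf2.

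With both knock-ins averaged against HFD mCherry, 0 of the 14 interstitial genes were called, 1 was higher and 6 were lower at an unadjusted p under 0.05, and their median was -0.87. Cd248 (endosialin), a stromal surface glycoprotein, was lowest at -2.00 ± 0.400 (edgeR adjusted p = 0.056) and Anxa3 highest at 0.63 ± 0.271 (edgeR adjusted p = 0.218). The share of all genes lower at that limit was 13.4%. Of the 13 committed preadipocyte genes, 0 were called and 7 were lower at an unadjusted p under 0.05, from Bmper, a BMP-binding protein, at -2.48 ± 0.632 (edgeR adjusted p = 0.086) to Fabp4, a fatty acid carrier, at 1.15 ± 0.597 (edgeR adjusted p = 0.298). The macrophage list summed to 192 to 800 CPM in HFD Tert and 262 to 569 CPM in HFD TertCi, with 0 of 7 genes called, 7 lower at an unadjusted p under 0.05 and a median of -1.95, and its part in the list values was not tested. Of the CD142+ genes, 0 of 9 were called, 2 were lower at an unadjusted p under 0.05 and the median was 0.45, with Clec11a lowest at -1.07 ± 0.248 (edgeR adjusted p = 0.0738). Of the brown and beige regulators, 0 of 10 were called and 2 were higher at an unadjusted p under 0.05, with a median of -0.01.

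Pdgfra, the growth factor receptor that marks adipose fibroblasts and progenitors in general, was the only gene of these progenitor and stromal lists to be called. It was at 198, 232 and 232 CPM in HFD mCherry, at 74.3, 61.3 and 89.6 CPM in HFD Tert and at 64.3, 56.7 and 63.9 CPM in HFD TertCi. All 6 knock-in libraries lay far below the 3 controls. It fell by 1.70 on the log2 scale in the averaged knock-ins (SE 0.178, edgeR adjusted p = 0.0119) and by 1.84 in HFD TertCi (SE 0.220, edgeR adjusted p = 0.0426), and in HFD Tert the value was -1.55 ± 0.218 (edgeR adjusted p = 0.123). Pdgfra was high also in HFD mCherry 15, the library in which Pi16, Cd55 and Ebf2 were low. It was at 137, 103 and 84.5 CPM on SD. On leaving out 1 library the difference stayed between -1.77 and -1.63 in the averaged knock-ins and between -1.91 and -1.78 in HFD TertCi. The calls were less steady: the edgeR adjusted p was above 0.05 in the average without any one library other than HFD mCherry 15 and HFD Tert 27 (up to 0.131), and in HFD TertCi without any one library compared other than HFD mCherry 15 (up to 0.373), with scaling by library size only (0.121) and with only the libraries compared (0.18).

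The markers were last set beside the summed epididymis and epithelium list of each library. SD mCherry 2 was low in this sum but had the highest Epcam and Cdh1 of all libraries. The division below is therefore not one by all epithelial genes. In the 5 libraries with the lowest sum (HFD Tert 27, HFD mCherry 20, HFD TertCi 31, SD mCherry 2 and HFD mCherry 17, at 4.82 to 2035 CPM), Ebf2 was at 40.2, 53.6, 18.1, 21.5 and 52.3 CPM in that order. In the other 7 it was at 2.61 to 17.5 CPM, so the 2 sets of libraries did not overlap. Cd55 was at 209, 252, 126, 130 and 324 CPM in the 5 and at 25.7 to 122 CPM in the other 7, again with no overlap. These 2 of 9 markers stand beside 2.18% of all genes that were higher in the 5 libraries without overlap. The margins were narrow, 18.1 against 17.5 CPM for Ebf2 and 126 against 122 CPM for Cd55. Since the libraries were divided after their levels were seen, the division is a description and not a test. Pi16 was at 201, 370, 209, 153 and 416 CPM in the 5 and at 71.5 to 185 CPM in the 7, with overlap, and the other 6 markers overlapped as well. Among these 5 libraries the HFD mCherry pair was above the 2 knock-in libraries and SD mCherry 2 for Pi16, Cd55 and Ebf2. With the mean log2 level of the epithelial list as a covariate, the diet differences were 0.86 ± 0.349 for Pi16, 1.12 ± 0.393 for Cd55 and 1.02 ± 0.439 for Ebf2 (edgeR adjusted p = 0.138, 0.0997 and 0.158). Both these differences and their standard errors were smaller than without the covariate, where the edgeR adjusted p was 0.163, 0.187 and 0.266. The diet difference of Dlk1 with the covariate was -1.36 ± 0.531 (edgeR adjusted p = 0.126). The mesothelial list summed to 413 to 1118 CPM on SD, 272 to 292 CPM in HFD mCherry, 609 to 1376 CPM in HFD Tert and 617 to 823 CPM in HFD TertCi, and its part in the marker values was not tested.

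**Figure D4:**
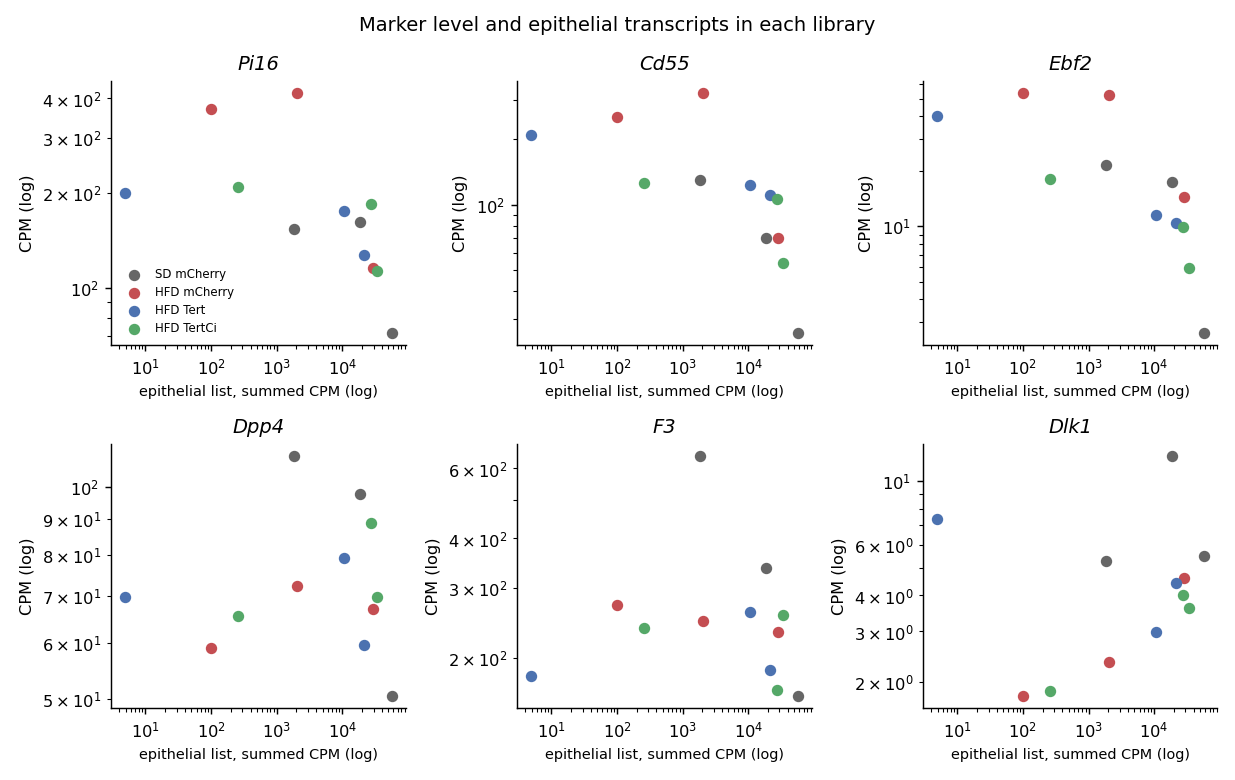
Marker level in CPM (vertical axis, log) against the summed CPM of 9 tested epididymis and epithelium genes (horizontal axis, log) for 6 markers, 1 point per library, coloured by group. Ebf2 and Cd55 are higher in all 5 libraries at or below 2035 CPM of this sum than in the other 7, and Dpp4, F3 and Dlk1 show no such division. The libraries were divided after their levels were seen, and 2.18% of all genes were higher in the 5 without overlap. SD mCherry 2 is among the 5 although its Epcam and Cdh1 are the highest of all libraries.

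Genes whose log2 CPM followed each marker most closely over the 12 libraries are given as a description, since these libraries share their depth, group and tissue make-up. Ebf2 was closest to Pcolce2 (Pearson's r = 0.989), a procollagen C-proteinase enhancer that is also an interstitial progenitor gene, and then to Rsbn1 and Nova1. Pi16 was closest to Prelp, a matrix proteoglycan (r = 0.975), with Scarb2 and Fndc1 next, and Cd55 to Frmd4b (r = 0.980), with Rnase4 and Lima1 next. For Ly6a the closest gene was Lrch3 (r = 0.978), followed by Agfg1 and Lrrk1. Cd34 was closest to Daam1 (r = 0.988), and Zfp423 to Msantd2 (r = 0.983), with Ccdc82 and Lifr next. Dpp4 and Dlk1 had no gene as close: their nearest were Adgrg1 (r = 0.855, with Gstt1 and Tctn2 next) and Cadps2 (r = 0.868, with Ercc6l2 and Haus5 next). F3 was closest to Dhx37 (r = 0.952), then Sco2 and Usp2. Among the markers themselves, r was 0.923 for Pi16 with Cd55 and for Cd55 with Ebf2, and 0.917 for Ly6a with Cd34, but 0.156 for Dpp4 with Pi16 over the same 12 libraries.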

How the data were processed

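Libraries were made from poly-A RNA with random-primed cDNA, per the labels' protocols. For each library the authors deposited raw counts of reads over 24422 features named by symbol, and the submitters' processing notes name the genome build mm10, Subread, SAMtools and featureCounts 1.6.4. Annotation release and strand setting are not given in the sources used here, so counts of Dpp4, Pi16, Cd55, Cd34 and Ebf2, whose exons overlap antisense genes over 2.03% to 6.12% of their bases, could hold antisense reads. Library totals were 16430330 to 19486965 counts, and no table line lacked a gene name.

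Counts were fitted with edgeR 4.0.16 in R 4.3.3: filterByExpr by group (16713 genes), TMM factors (0.854 to 1.15), 1 robust quasi-likelihood model of the 4 group means, 2-sided tests with Benjamini-Hochberg adjustment over all genes tested, and a call at an adjusted p under 0.05. Residual degrees of freedom were 8 (median prior 2.71), and the common coefficient of biological variation was 0.536. CPM use the TMM-scaled library size, and log2 CPM add a prior count of 0.5. Standard errors of edgeR fold changes were derived as the absolute log2 fold change divided by the square root of its F statistic. The 95% intervals were built from these standard errors with t quantiles. The model was checked on simulated data in which 200 genes had known changes. Alternatives were no filter, relative log expression factors, library size only, DESeq2 1.42.0, limma-voom (limma 3.58.1), no robust estimation, only the libraries compared, an epithelial covariate, and leaving out each library. Levels per kilobase and coordinates use GENCODE M21 gene models of GRCm38, the build mm10 is based on, and promoter sequences are from RefSeq GRCm38.p6.

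The markers and the lists were chosen with earlier results of these data known. Named genes were all 9 markers and, from the progenitor and stromal lists, called genes or otherwise genes with the highest or lowest fold change and a mean of at least 1 CPM. For each marker they were also the 3 genes of at least 5 CPM with the highest Pearson correlation. A pair of protocadherin genes that share exons, next closest to Cd34, is not listed. The other lists were not named by this rule, though 1 mature adipocyte gene was called lower for diet and 1 higher in the averaged knock-ins.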

Additional observations from a re-analysis of the deposited data

How the results depend on the processing

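No paired analysis was possible because no group shares a replicate number with another. Over 702 refits of marker fold changes, 652 kept direction and side of the threshold, 8 passed it and 42 changed sign, 31 of these on leaving out 1 library; none of the 42 was of a called value, and the causes were not tested. The genes called were 8 for diet (2 with relative log expression factors, 2069 with DESeq2, 0 with limma-voom and 0 with only the libraries compared, at 3734 and 3471 genes under an unadjusted p of 0.05, 1570 with the epithelial covariate, 0 to 2082 on leaving out 1 library), 0 for HFD Tert (2735 under an unadjusted p of 0.05; DESeq2 847, covariate 1090, 0 to 51), 2 for HFD TertCi (library size only 1, DESeq2 684, only the libraries compared 0, covariate 622, 0 to 198), 0 for HFD Tert against HFD TertCi (DESeq2 9, 0 to 0), 28 for the averaged knock-ins (library size only 121, DESeq2 1543, limma-voom 12, only the libraries compared 68, covariate 1747, 0 to 690) and 2 over the 4 groups (DESeq2 2303, limma-voom 0, covariate 1343, 0 to 651). Where leaving out 1 library raised a count, the highest came without HFD mCherry 15. The fit without HFD mCherry 15 and HFD Tert 27, chosen after seeing the data, called 3329 genes for diet, 1081, 590 and 1586 for HFD Tert, HFD TertCi and their average, and 1709 over the groups. It called 4 markers for diet and 1 for the average. The covariate fit called 1 marker for the average, and leaving out 1 library called 0 to 2 for diet and 0 to 0 elsewhere. Sign changes of log2 fold changes outside single left-out libraries were Zfp423 for diet with the covariate (-0.028), Cd34 in HFD Tert with library size only (0.086) and limma-voom (0.011), Zfp423 without the 2 libraries in HFD Tert (-0.35) and the average (-0.077), and, for HFD Tert against HFD TertCi, Pi16 with limma-voom (0.0075), Ly6a with the covariate (-0.025), and F3, Ly6a, Cd34 and Ebf2 without the 2 libraries (0.025, -0.088, -0.082 and -0.034). Leaving out 1 library, the log2 fold changes that changed sign ran from -0.97 to 0.014 for F3 for diet; in HFD Tert from -0.036 to 0.17 for Dpp4, -0.40 to 0.083 for Ly6a, -0.34 to 0.22 for Cd34 and -0.16 to 0.52 for Zfp423; in HFD TertCi from -0.13 to 0.61 for Dlk1, -0.63 to 0.0034 for Cd34 and -0.035 to 0.63 for Zfp423; in the average from -0.46 to 0.024 for Ly6a and -0.44 to 0.11 for Cd34; and for HFD Tert against HFD TertCi from -0.22 to 0.040 for Dpp4, -0.23 to 0.17 for Pi16, -0.26 to 0.052 for F3, -0.088 to 0.28 for Ly6a, -0.082 to 0.59 for Cd34, -0.54 to 0.35 for Zfp423 and -0.035 to 1.39 for Ebf2. Relative to Dcn and Lum alone, 0 markers, not 1, were free of overlap between HFD Tert and HFD TertCi. Against HFD mCherry, 5 markers, not 4, were free of overlap in HFD TertCi and 4, not 3, in the averaged knock-ins. Scaling by library size alone moved the median of all genes by -0.20 for diet. Dlk1, at 29 to 240 counts, is the marker most limited by depth.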
